A study of Rattus norvegicus with 12 samples.

Results

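The ligands and receptors of the tumor necrosis factor (TNF) superfamily were followed through rat fracture hematoma and healthy femur by RNA sequencing. Members were all genes with a Tnfsf or Tnfrsf symbol followed by a digit, plus Tnf, Lta, Ltb, Fas, Faslg, Cd40, Cd40lg, Cd27, Cd70 and Ltbr, with Tnfsf11, Tnfrsf11a and Tnfrsf11b left out. The rule itself uses names only, and the set was picked with earlier results of these data known. The rule matches 37 rat genes, of which 31 were in the files, out of 17379 features in all, as 14 ligands and 17 receptors. The other 6 genes, Tnfrsf10b, Tnfrsf13c, Tnfrsf22, Tnfrsf26, Tnfsf13b and Tnfsf18, were not analysed here. Each member was measured through a single RefSeq transcript.

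Male rats of the SAS Fischer strain, weighing 200 to 225 g, had a surgical defect in the femur. Hematoma was taken from a 0.5 mm defect (the normal healing model, called normal), a 1.5 mm defect (delayed healing, called delayed) or a 5.0 mm defect (nonunion). The reference, called preOP, was healthy femur cut out at surgery when a 5.0 mm defect was made, with no treatment. There were 3 libraries in each of the 4 groups, and the labels give neither the time of hematoma collection nor whether libraries came from separate animals, so p-values measure only the spread between these samples.

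TNF superfamily ligands are mostly trimeric proteins of the cell surface, many of which can be shed into soluble form. Their receptors either carry an intracellular death domain that can start apoptosis or recruit TRAF adapters that lead to NF-kB and stress kinase signalling. In bone injury, TNF is best known as an early inflammatory signal from macrophages and neutrophils, while many other pairs in the superfamily are costimulatory signals between lymphocytes and antigen-presenting cells.

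Several of these genes lie next to each other in the rat genome. On chromosome 4, Cd27, Ltbr and Tnfrsf1a follow one another with 1 protein-coding gene between each pair (Tuba3a, then Scnn1a). Against preOP these neighbours went opposite ways, with Cd27 lower and Ltbr and Tnfrsf1a higher in the mean hematoma. The 250 bases before the start site of each are printed first, followed by those of Tnfrsf12a, the member with the largest rise over preOP in the mean hematoma, and of Tnf. All are from RefSeq on build GRCr8, 5′ to 3′ on the strand of the gene, and capitals mark matches to a GC box (GGGCGG) or a TATA box (TATAAA) on either strand.
Cd27, chr4:159721824-159722073, minus strand: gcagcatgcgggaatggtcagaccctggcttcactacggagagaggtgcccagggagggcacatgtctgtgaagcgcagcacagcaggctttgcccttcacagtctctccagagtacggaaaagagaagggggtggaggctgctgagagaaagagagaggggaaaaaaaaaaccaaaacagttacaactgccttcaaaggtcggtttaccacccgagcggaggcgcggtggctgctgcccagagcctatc
Ltbr, chr4:159801517-159801766, minus strand: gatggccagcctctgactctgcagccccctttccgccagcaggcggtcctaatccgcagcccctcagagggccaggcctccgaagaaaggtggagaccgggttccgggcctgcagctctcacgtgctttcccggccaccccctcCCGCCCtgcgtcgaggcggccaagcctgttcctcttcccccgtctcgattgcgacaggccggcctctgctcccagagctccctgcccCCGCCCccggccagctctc
Tnfrsf1a, chr4:159836869-159837118, plus strand: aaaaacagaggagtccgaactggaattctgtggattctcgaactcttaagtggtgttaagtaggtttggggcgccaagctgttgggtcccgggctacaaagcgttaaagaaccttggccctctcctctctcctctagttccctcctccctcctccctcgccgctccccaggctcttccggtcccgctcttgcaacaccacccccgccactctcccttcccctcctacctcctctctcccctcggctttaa
Tnfrsf12a, chr10:13213649-13213898, minus strand: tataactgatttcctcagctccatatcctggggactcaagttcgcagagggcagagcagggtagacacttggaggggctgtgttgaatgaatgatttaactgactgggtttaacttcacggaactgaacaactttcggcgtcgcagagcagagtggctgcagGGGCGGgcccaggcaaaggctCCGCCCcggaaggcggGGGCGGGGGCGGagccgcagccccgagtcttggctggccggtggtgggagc
Tnf, chr20:3626435-3626684, plus strand: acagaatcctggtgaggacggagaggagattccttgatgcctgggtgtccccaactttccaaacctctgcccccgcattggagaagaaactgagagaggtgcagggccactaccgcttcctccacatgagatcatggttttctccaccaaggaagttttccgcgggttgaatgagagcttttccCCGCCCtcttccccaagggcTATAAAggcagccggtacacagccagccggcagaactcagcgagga

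The Ltbr window held 2 GC boxes, the Tnfrsf12a window 4, and the Tnf window 1 GC box and 1 TATA box, whose first letters lay 66 and 46 bases before the start. The Cd27 and Tnfrsf1a windows held neither. Windows were given for 24 of the 31 members. A GC box was in 14 of the 24 (58.3%) and in 30.5% of 33469 rat promoter windows of the same length. These 33469 windows were not filtered by gene type, while the members are protein-coding, so the 2 sets are not matched. A TATA box was in 5 of the 24 (20.8%) and in 12.9% of all windows. The AP-1 site (TGANTCA) was in 3 member windows (12.5%, against 6.34% of all). The NF-kB consensus was in 5 (20.8%, against 6.33%), those of Fas, Lta, Ltb, Tnfrsf8 and Tnfsf14, and matches to different motifs could share bases. These are matches of letters in a window, and do not show that a factor binds there.

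Total estimated reads ran from 16808984 to 24325144 per library, and 3 reads corresponded to 0.115 to 0.462 CPM (counts per 1000000 reads, here scaled by the trimmed mean of M values, TMM). In nonunion 2, ribosomal RNA took 72.24% of the reads and 2 unnamed transcripts a further 8.22%, so that 4752852 reads remained for other genes. Its summed adipocyte markers (6 of 6 in the files) stood at 11063 CPM, against 175 to 1660 CPM elsewhere, and delayed 2 had summed skeletal muscle markers (7 of 8) of 43480 CPM, against 156 to 8916 CPM. The normal files also differed from the others in form and in how far effective length fell short of transcript length (median 157 to 192 bases, against 194 to 255). Whether these files were processed apart is not known, and such a difference could not be told apart from the normal group. Osteoblast markers (8 of 8) were detected in preOP, at 2252 to 2511 CPM in sum, most of it Col1a1 (1724 to 2097 CPM). Erythroid markers (5 of 6) summed to 111930 to 189750 CPM in preOP and 884 to 19497 CPM in the hematomas. In such bulk tissue, fewer cells of a type and less RNA per cell cannot be told apart.

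Compared with preOP, the superfamily moved in both directions. Averaged over the 3 hematoma groups with equal weight, 5 of 25 members tested were higher than preOP by edgeR's quasi-likelihood test at an adjusted p below 0.05: Tnfrsf12a, Tnfsf9, Tnfsf12, Tnfrsf1a and Ltbr. Lower were 8 members: Tnfrsf14, Tnfrsf17, Tnfrsf19, Tnfsf14, Cd27, Faslg, Tnfrsf25 and Tnfrsf4. Of all 12846 genes tested, 40.6% were called in this comparison, 17.6% higher and 23% lower. The members' median log2 fold change was -0.12, against -0.02 over all genes.

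Normal against preOP gave 5 higher and 6 lower members, beside 42.6% of all genes called (20.5% higher, 22.1% lower). Delayed against preOP gave 6 higher and 6 lower members, beside 28.2% of all genes (12.6% higher, 15.6% lower). Nonunion against preOP gave 5 higher and 5 lower members, beside 28.4% of all genes (13.5% higher, 14.9% lower). Of the 25 members tested, 44% were called in normal, 48% in delayed and 40% in nonunion. The share was near that of all genes in normal and above it in delayed and nonunion. With 25 members a few calls move such a share far, and the comparisons share the preOP libraries.

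Among the hematomas very little of the superfamily passed the test. In simulated data with 200 changed genes it missed most 4-fold differences between delayed and normal. More genes than that were called here in delayed against normal (889), so the real share missed may be smaller. In delayed against normal, 1 of 24 members tested was called, Tnfrsf19, which was lower, where 7.13% of all 12474 genes were called (2.68% higher, 4.45% lower). The members' median log2 fold change was 0.42, against 0.02 for all genes, and 7 members were higher and 4 lower at an unadjusted p below 0.05, as were 3214 of the 12474 genes in either direction. Nonunion against normal called 0 members with edgeR (2.37% of all genes, 0.89% higher and 1.48% lower), with 3 members and 2558 genes at an unadjusted p below 0.05. DESeq2 called 1 member, Tnfsf10, and 1311 genes. Nonunion against delayed called 0 members (0% of all genes), with 3 members and 881 genes at an unadjusted p below 0.05. DESeq2 called 0 members and 184 genes there.

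Leaving out delayed 2 and nonunion 2 raised the delayed against normal count from 1 to 6 members, with Cd27, Tnf, Tnfrsf14 and Tnfrsf1b higher and Tnfrsf12a and Tnfrsf19 lower. The share of all genes called rose from 7.13% to 16.4% with the same change.

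**Figure D1:**
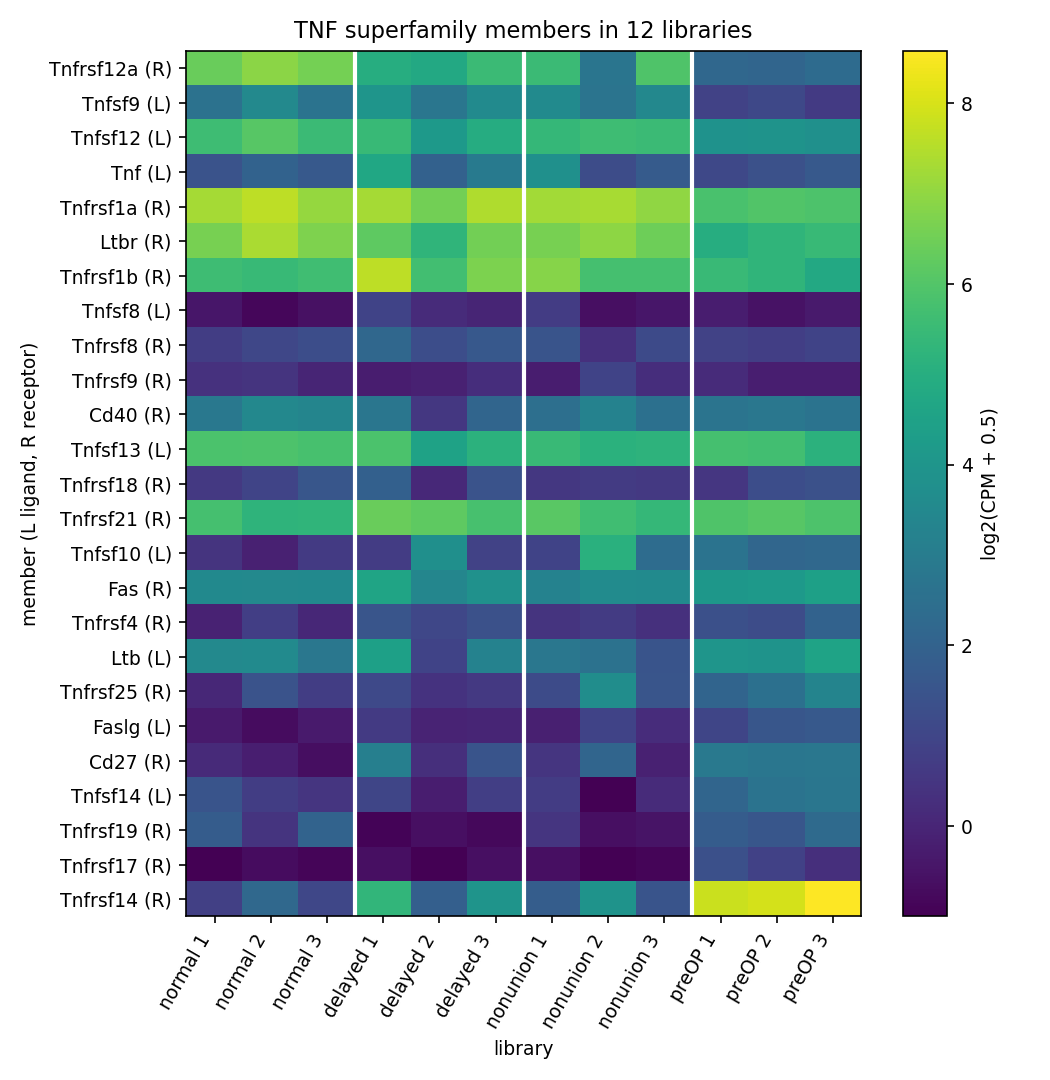
Level of the 25 tested members in each of the 12 libraries, as log2 of CPM plus a small constant (color scale), with members ordered by their fold change in the mean hematoma against preOP and L or R marking ligand or receptor. Tnfrsf12a at the top is brightest in the normal libraries, Tnfrsf14 at the bottom is brightest in preOP, and Tnfrsf1a and Ltbr are bright in all hematoma libraries.

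**Figure D2:**
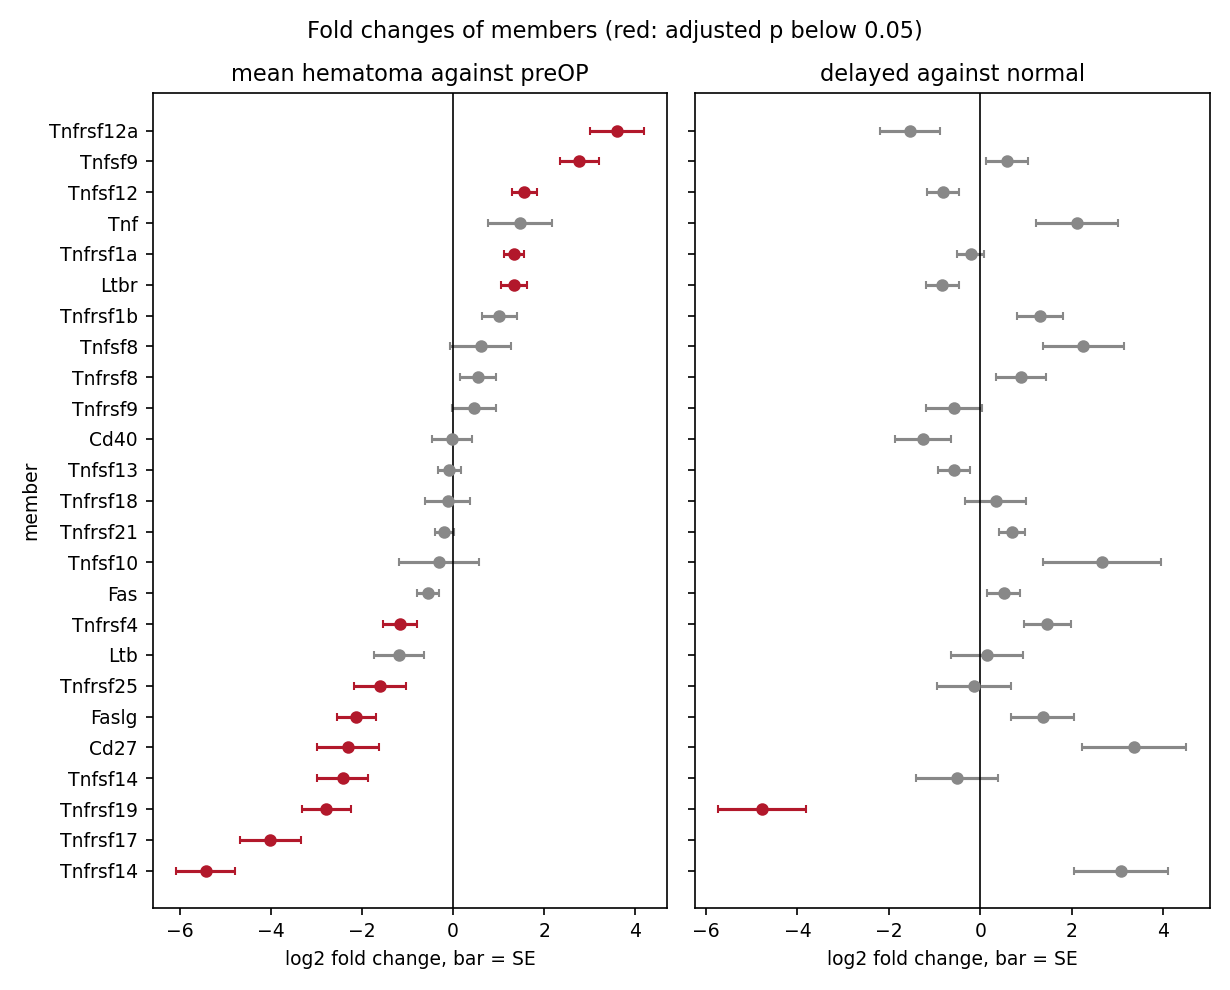
Log2 fold change of each tested member (point) with its SE (bar) for the mean hematoma against preOP (left) and delayed against normal (right), in the same gene order, with red for an edgeR adjusted p below 0.05. On the left 5 members are called higher and 8 lower, while on the right Tnfrsf19 alone is called, and Tnfrsf17 was not tested there.

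Tnf, the founding ligand, was high in a few of the hematoma libraries. It measured 2.21, 3.49 and 2.70 CPM in normal 1 to 3 and 25.6, 3.45 and 7.14 CPM in delayed 1 to 3. In nonunion 1 to 3 it was 13.5, 1.85 and 2.89 CPM, and in preOP 1 to 3 it was 1.63, 2.08 and 2.71 CPM. Delayed 1 and nonunion 1 stood above all other libraries, with delayed 3 next. Delayed exceeded preOP (log2 fold change 2.50, SE 0.84, edgeR adjusted p = 0.045), with no overlap of libraries. That call was lost in 8 of 20 alternatives, at edgeR adjusted p values up to 0.18 (without delayed 1), and among them were leaving out any 1 of the preOP or of the normal libraries. In the mean hematoma the difference was 1.47 (SE 0.71, edgeR adjusted p = 0.12), and DESeq2 called it (1.56, adjusted p = 0.037). Delayed against normal overlapped (2.11, SE 0.90, edgeR adjusted p = 0.18).

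The receptor that carries a death domain, Tnfrsf1a (TNFR1), rose in every hematoma group. Its levels were 157, 195 and 133 CPM in normal, 154, 92.8 and 173 CPM in delayed, 152, 162 and 128 CPM in nonunion and 56.5, 61.9 and 58.7 CPM in preOP, each in the order of replicates 1 to 3. All 9 hematoma libraries were above all 3 preOP libraries, with delayed 2 the lowest of them. The log2 fold change over preOP was 1.46 (SE 0.26) in normal, 1.24 (SE 0.26) in delayed and 1.32 (SE 0.26) in nonunion. The mean hematoma was higher by 1.34 (SE 0.23, edgeR adjusted p = 0.00085), and between hematoma groups the estimates were -0.21 to 0.01. The calls against preOP held under every alternative run.

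The other TNF receptor, Tnfrsf1b (TNFR2), lacks a death domain and is found mainly on leukocytes. It measured 48.3, 43.1 and 49.0 CPM in normal and 197, 51.0 and 102 CPM in delayed. The nonunion libraries had 113, 54.1 and 53.9 CPM, and preOP had 44.4, 38.2 and 27.3 CPM. Delayed 1, delayed 3 and nonunion 1 stood apart at the top, and normal overlapped the top of the preOP range. Delayed was higher than preOP (log2 fold change 1.67, SE 0.46, edgeR adjusted p = 0.019). This call was lost without delayed 1, at an edgeR adjusted p of 0.057, and without preOP 2 or preOP 3. For the mean hematoma the difference was 1.01 (SE 0.39, edgeR adjusted p = 0.057), which passed with DESeq2 size factors (1.11, adjusted p = 0.042) and without ribosomal RNA (1.17, adjusted p = 0.031). DESeq2 also called it (1.11, adjusted p = 0.014), as did edgeR without delayed 2 and nonunion 2 (1.35, adjusted p = 0.0029). Macrophage markers (11 of 11 in the files, Marco at 0 in all normal and delayed libraries) also summed highest in delayed 1, at 10655 CPM, and ranged over 3605 to 10655 CPM in delayed, 2972 to 8002 CPM in nonunion, 7212 to 7869 CPM in normal and 2780 to 4810 CPM in preOP. Except in nonunion 2, most of each sum was Lyz2, so the sum says little about the other macrophage markers. Lyz2 was 839 CPM in nonunion 2 and 2242 to 8386 CPM in the other libraries. The part of macrophages in the levels of Tnf and Tnfrsf1b was not tested.

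Because counts depend on transcript length, receptors were compared with each other by the deposited TPM (transcripts per 1000000, a measure per length) within a library. The ratio of Tnfrsf1b to Tnfrsf1a TPM was 0.220, 0.159 and 0.264 in normal, 0.912, 0.391 and 0.418 in delayed, 0.528, 0.239 and 0.301 in nonunion and 0.562, 0.440 and 0.333 in preOP. Tnfrsf1a was the more abundant transcript in all 12 libraries. The normal ratios lay below all delayed and preOP ratios and overlapped those of nonunion.

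Lymphotoxin beta (Ltb) forms a membrane complex with lymphotoxin alpha (Lta) that engages Ltbr. Ltbr was 97.6, 162 and 107 CPM in normal, 73.9, 38.3 and 92.1 CPM in delayed, 98.8, 124 and 87.2 CPM in nonunion and 30.6, 38.5 and 43.7 CPM in preOP. Normal and nonunion lay wholly above preOP, and delayed 2 lay within the preOP range. The log2 fold change over preOP was 1.70 (SE 0.33, edgeR adjusted p = 0.0025) in normal and 1.46 (SE 0.33, edgeR adjusted p = 0.0082) in nonunion. Delayed gave 0.86 (SE 0.33, edgeR adjusted p = 0.074), which became a call with DESeq2 size factors (1.00, adjusted p = 0.049) and without ribosomal RNA (1.07, adjusted p = 0.032). DESeq2 also called it (1.00, adjusted p = 0.027), as did edgeR without delayed 2 and nonunion 2 (1.36, adjusted p = 0.0020).

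The ligand Ltb was lower in its mean in every hematoma group than in preOP, and edgeR with all libraries called none of these differences. It was 10.8, 11.4 and 6.49 CPM in normal, 21.1, 1.39 and 9.07 CPM in delayed, 6.44, 5.55 and 2.32 CPM in nonunion and 15.5, 14.8 and 23.3 CPM in preOP. All normal and nonunion libraries were below preOP, while delayed spanned the range. The mean hematoma differed by -1.19 (SE 0.55, edgeR adjusted p = 0.11) and nonunion by -1.91 (SE 0.74, edgeR adjusted p = 0.078). DESeq2 called the nonunion difference (-1.82, adjusted p = 0.038), as did edgeR without delayed 2 and nonunion 2 (-1.87, adjusted p = 0.017). By TPM, Ltb was 0.757 to 1.04 times Ltbr in preOP and 0.0521 to 0.561 times Ltbr in the hematomas. Lta was too low to test and reached at most 1.08 CPM, in nonunion 2. Lta, Tnf and Ltb are direct neighbours on chromosome 20.

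Fas, the death receptor, was present in all libraries and its ligand was scarce. Fas was 11.1, 11.0 and 11.1 CPM in normal, 23.7, 10.0 and 14.1 CPM in delayed, 9.01, 11.9 and 11.6 CPM in nonunion and 16.1, 17.1 and 21.4 CPM in preOP. Normal and nonunion lay below preOP, and delayed 1 was the highest of all. With all libraries edgeR called no comparison of Fas (mean hematoma log2 fold change -0.55, SE 0.25, edgeR adjusted p = 0.095).

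Faslg, which cytotoxic lymphocytes use to trigger Fas, was 0.301, 0.122 and 0.315 CPM in normal, 1.04, 0.464 and 0.484 CPM in delayed, 0.395, 1.39 and 0.662 CPM in nonunion and 1.48, 2.45 and 2.71 CPM in preOP. Every hematoma library was below every preOP library. The mean hematoma was lower by a log2 fold change of -2.12 (SE 0.43, edgeR adjusted p = 0.0027), and normal by -3.12 (SE 0.63, edgeR adjusted p = 0.0029). The call for delayed (-1.73, SE 0.58, edgeR adjusted p = 0.045) was lost in 14 of 20 alternatives. T and NK cell markers (13 of 13, none at 0) summed to between 135 and 138 CPM in normal, 183 and 359 CPM in delayed, 223 and 275 CPM in nonunion and 149 and 222 CPM in preOP. Most of each sum came from Cd4, Cd8a and Nkg7, so it says little about the other markers. Of the 13, 2 were higher and 3 lower in the mean hematoma than in preOP. The part of these cells in Faslg was not tested.

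Tnfrsf12a (FN14), a small receptor induced in injured tissue, and its ligand Tnfsf12 (TWEAK) were both higher in the hematomas. Tnfrsf12a was 83.6, 122 and 95.2 CPM in normal, 30.7, 27.2 and 46.2 CPM in delayed, 45.9, 6.16 and 61.1 CPM in nonunion and 4.05, 3.92 and 4.62 CPM in preOP. Normal was highest and preOP lowest with no overlap with any other group, and nonunion 2 fell close to preOP. The log2 fold change over preOP was 4.58 (SE 0.67, edgeR adjusted p = 0.00051) in normal, 3.05 (SE 0.62, adjusted p = 0.0047) in delayed and 3.18 (SE 0.63, adjusted p = 0.0041) in nonunion. In the mean hematoma it was 3.60 (SE 0.60, edgeR adjusted p = 0.00078), a 12.1-fold difference, and all 4 calls held under every alternative run.

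Delayed and nonunion both lay below normal for Tnfrsf12a without overlap, but neither difference passed. The log2 fold change of delayed against normal was -1.53 (SE 0.66, edgeR adjusted p = 0.18), and that of nonunion against normal -1.45 (SE 0.65, edgeR adjusted p = 0.25). Without delayed 2 and nonunion 2 the first was -1.30 (SE 0.30, edgeR adjusted p = 0.028). Osteoblast markers summed to 18235 to 27391 CPM in normal, 4194 to 15531 CPM in delayed and 4281 to 5264 CPM in nonunion. These sums were mostly Col1a1 (4163 to 25995 CPM in the hematomas). Of the 8 osteoblast markers, 4 were lower than preOP in delayed and 4 in nonunion, with 1 higher in delayed. Fibroblast markers (7 of 7) summed to 10440 to 21143, 6507 to 15392 and 6807 to 14578 CPM, against 1073 to 2256 in preOP. The fibroblast sums overlapped between hematoma groups, and 1 of the 7 was lower than normal in delayed and 1 in nonunion. The part of either marker list in Tnfrsf12a was not tested.

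Tnfsf12 was 48.3, 68.6 and 45.2 CPM in normal, 43.7, 17.3 and 30.4 CPM in delayed, 41.0, 48.5 and 45.5 CPM in nonunion and 14.4, 14.8 and 13.4 CPM in preOP. All hematoma libraries exceeded preOP, and delayed 2 came nearest to it. The log2 fold change over preOP was 1.93 (SE 0.32, edgeR adjusted p = 0.00094) in normal, 1.67 (SE 0.31, adjusted p = 0.0031) in nonunion and 1.11 (SE 0.31, adjusted p = 0.021) in delayed. The delayed call was lost without delayed 1, at an edgeR adjusted p of 0.06, and without preOP 1 or preOP 3.

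Receptor and ligand did not rise in equal measure. The ratio of Tnfrsf12a to Tnfsf12 TPM within a library was 3.02, 3.04 and 3.61 in normal, 1.25, 2.83 and 2.76 in delayed, 2.01, 0.222 and 2.39 in nonunion and 0.500, 0.475 and 0.609 in preOP. The receptor was the more abundant transcript in 8 of 9 hematoma libraries, with nonunion 2 as the exception, and the ligand in all 3 preOP libraries. Tnfrsf12a was the top member by TPM in all normal libraries, where it made up 27.7% to 31.2% of the summed TPM of members, and in nonunion 3. Tnfrsf1a was the top member in the other hematoma libraries, and Tnfrsf14 in preOP.

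**Figure D3:**
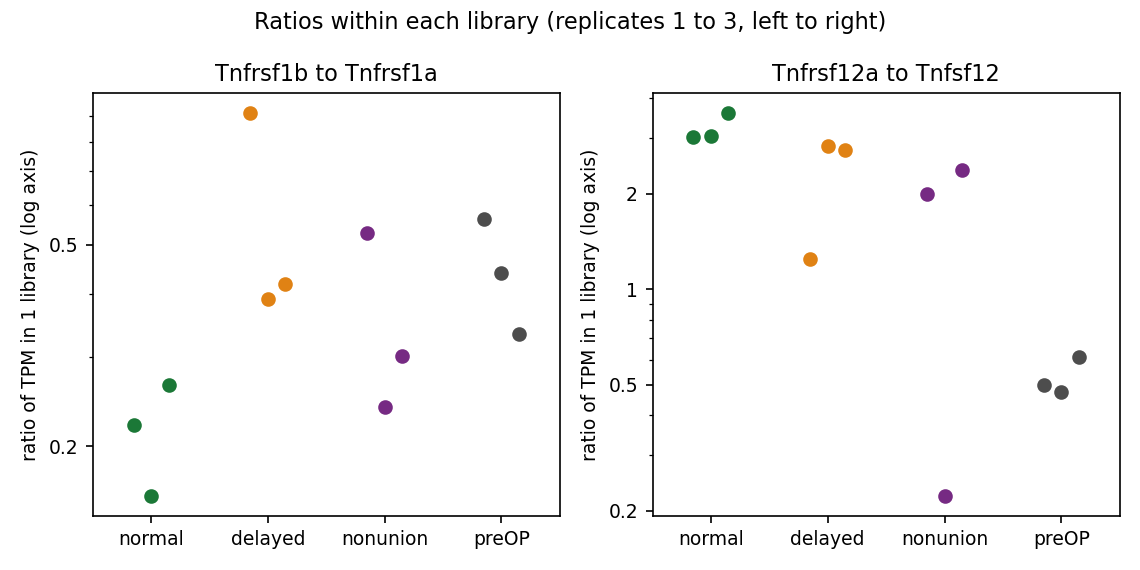
Ratio of the deposited TPM of 2 members within each library (1 point per library, log axis), for Tnfrsf1b to Tnfrsf1a on the left and Tnfrsf12a to Tnfsf12 on the right. The Tnfrsf12a to Tnfsf12 ratio is 3.02 to 3.61 in normal and 0.475 to 0.609 in preOP, and nonunion 2 sits at 0.222, below preOP.

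TRAIL (Tnfsf10), a ligand that can kill transformed cells through death receptors, was uneven among the hematomas. Its levels were 0.852, 0.428 and 1.04 CPM in normal and 1.11, 13.2 and 1.37 CPM in delayed. In nonunion it was 1.38, 33.3 and 4.76 CPM, and in preOP 5.72, 4.01 and 4.25 CPM. The high values were those of delayed 2 and nonunion 2, the libraries with high muscle and adipocyte markers, and the normal libraries were the lowest. Nonunion against normal differed by 3.95 (SE 1.36, edgeR adjusted p = 0.15) without overlap, and DESeq2 called it (4.11, adjusted p = 0.0061). Without delayed 2 and nonunion 2 the log2 fold change was 2.00 (SE 0.64, edgeR adjusted p = 0.13). The part of the muscle and adipocyte markers in it was not tested.

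Tnfsf13 (APRIL), a B and plasma cell survival ligand, was abundant in every group. It was 57.9, 59.1 and 54.5 CPM in normal, 58.2, 22.4 and 34.9 CPM in delayed, 45.0, 34.2 and 36.0 CPM in nonunion and 54.1, 50.2 and 35.3 CPM in preOP. The groups overlapped except that normal was above nonunion and above preOP, and no comparison passed. For the mean hematoma the log2 fold change was -0.08 (SE 0.26, edgeR adjusted p = 0.82), and its sign flipped with DESeq2 size factors and without ribosomal RNA. Tnfsf12 is the direct neighbour of Tnfsf13 on chromosome 10.

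The plasma cell receptor for this ligand, Tnfrsf17 (BCMA), was read almost only in femur at this depth. It was 0, 0.122 and 0.0451 CPM in normal, 0.153, 0 and 0.161 CPM in delayed, 0.158, 0 and 0.0414 CPM in nonunion and 2.02, 1.32 and 0.740 CPM in preOP. A count of 0 allowed up to 0.150 CPM in normal 1, 0.155 in delayed 2 and 0.462 in nonunion 2. The preOP libraries held 81 reads in all and the normal libraries 3, 27.4-fold more after scaling (exact 95% interval 9.04 to 135, counting error only). The mean hematoma was lower by a log2 fold change of -4.01 (SE 0.67, edgeR adjusted p = 0.00081). Among B and plasma cell markers 7 of 11 were in the files, and 6 of the 7 were also lower in the mean hematoma than in preOP, while Sdc1 was higher. Sdc1 was 8.01 to 426 CPM in the hematomas and 15.1 to 17.9 CPM in preOP. The list summed to 266 to 305 CPM in normal, 126 to 450 CPM in delayed, 62.6 to 249 CPM in nonunion and 197 to 299 CPM in preOP, with 1 marker at 0 in nonunion 3. The part of B and plasma cell content in Tnfrsf17 was not tested.

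CD40, the receptor through which T cells help B cells and macrophages, was 6.62, 10.5 and 9.64 CPM in normal, 6.29, 0.980 and 3.91 CPM in delayed, 5.22, 9.09 and 5.33 CPM in nonunion and 6.02, 6.51 and 5.85 CPM in preOP. Delayed 2 was the lowest library, and all delayed libraries were below all normal ones. Delayed against normal differed by -1.25 (SE 0.61, edgeR adjusted p = 0.23), and no other comparison of Cd40 passed either.

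Cd27, a costimulatory receptor of T cells and memory B cells, was scarcest in normal. It was 0.601, 0.367 and 0.135 CPM in normal, 8.40, 0.722 and 2.34 CPM in delayed, 0.909, 3.85 and 0.414 CPM in nonunion and 6.81, 6.23 and 6.53 CPM in preOP. The normal libraries lay below all delayed and preOP libraries, while delayed 1 exceeded preOP. Normal was lower than preOP by a log2 fold change of -4.13 (SE 1.04, edgeR adjusted p = 0.0088), a call that held under every alternative run. The mean hematoma differed by -2.31 (SE 0.68, edgeR adjusted p = 0.019), and leaving out any preOP library raised that to 0.056 to 0.073. Delayed exceeded normal by 3.37 (SE 1.14, edgeR adjusted p = 0.11), and without delayed 2 and nonunion 2 by 3.93 (SE 0.77, edgeR adjusted p = 0.017). DESeq2 with all libraries called it too (3.45, adjusted p = 0.011).

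The T cell gene Cd3e was 0.766 to 1.29 CPM in normal, 0.567 to 9.28 CPM in delayed, 0.993 to 3.85 CPM in nonunion and 3.92 to 5.77 CPM in preOP. Its highest hematoma libraries, delayed 1 and nonunion 2, were also the highest hematoma libraries for Cd27. Among the hematomas, Cd3d, Cd3g, Cd4, Cd5, Lck, Klrd1 and Prf1 were also highest in delayed 1 and nonunion 2. Cd2, Cd8a, Cd8b, Zap70 and Nkg7 did not share this order. Of the 13 T and NK cell markers, 2 were higher and 3 lower in the mean hematoma than in preOP. Cd8a was 12.3 to 211 CPM in the hematomas and 11.8 to 16.3 CPM in preOP. The part of T cell content in Cd27 was not tested.

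Tnfrsf14 (HVEM), a receptor for LIGHT on lymphocytes and other cells, showed the largest difference of all members tested in the mean hematoma against preOP, while in delayed alone Tnfrsf19 differed more. It was 1.25, 4.22 and 1.53 CPM in normal, 39.6, 3.25 and 14.9 CPM in delayed, 3.00, 14.6 and 2.27 CPM in nonunion and 223, 249 and 383 CPM in preOP. The lowest preOP library was above the highest hematoma library, delayed 1. Tnfrsf14 made up 37.8% to 50.0% of the summed member TPM in preOP. In the mean hematoma it was lower by a log2 fold change of -5.44 (SE 0.65, edgeR adjusted p = 0.00011), or 43.3-fold. By group the log2 fold change was -6.94 (SE 1.10) in normal, -5.48 (SE 1.03) in nonunion and -3.89 (SE 0.95) in delayed. These calls held under every alternative run, except that delayed without delayed 3 gave an edgeR adjusted p of 0.056.

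Delayed exceeded normal for Tnfrsf14 by 3.07 (SE 1.03, edgeR adjusted p = 0.11) with overlap. DESeq2 called it (3.12, adjusted p = 0.0092), as did edgeR without delayed 2 and nonunion 2 (3.62, SE 0.63, adjusted p = 0.013). The erythroid gene Alas2 stood at 1785 to 2704 CPM in preOP, 196 CPM in delayed 1 and 9.49 to 69.5 CPM in the other hematomas, and all 5 erythroid markers were lower in the mean hematoma than in preOP. Delayed 1 was the highest hematoma library for both genes, but the other hematoma libraries did not keep a common order. Normal 1 was next for Alas2 (69.5 CPM) and lowest for Tnfrsf14 (1.25 CPM), and nonunion 2 had 14.6 CPM of Tnfrsf14 with 11.1 CPM of Alas2. The part of marrow and blood cells in Tnfrsf14 was not tested.

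**Figure D4:**
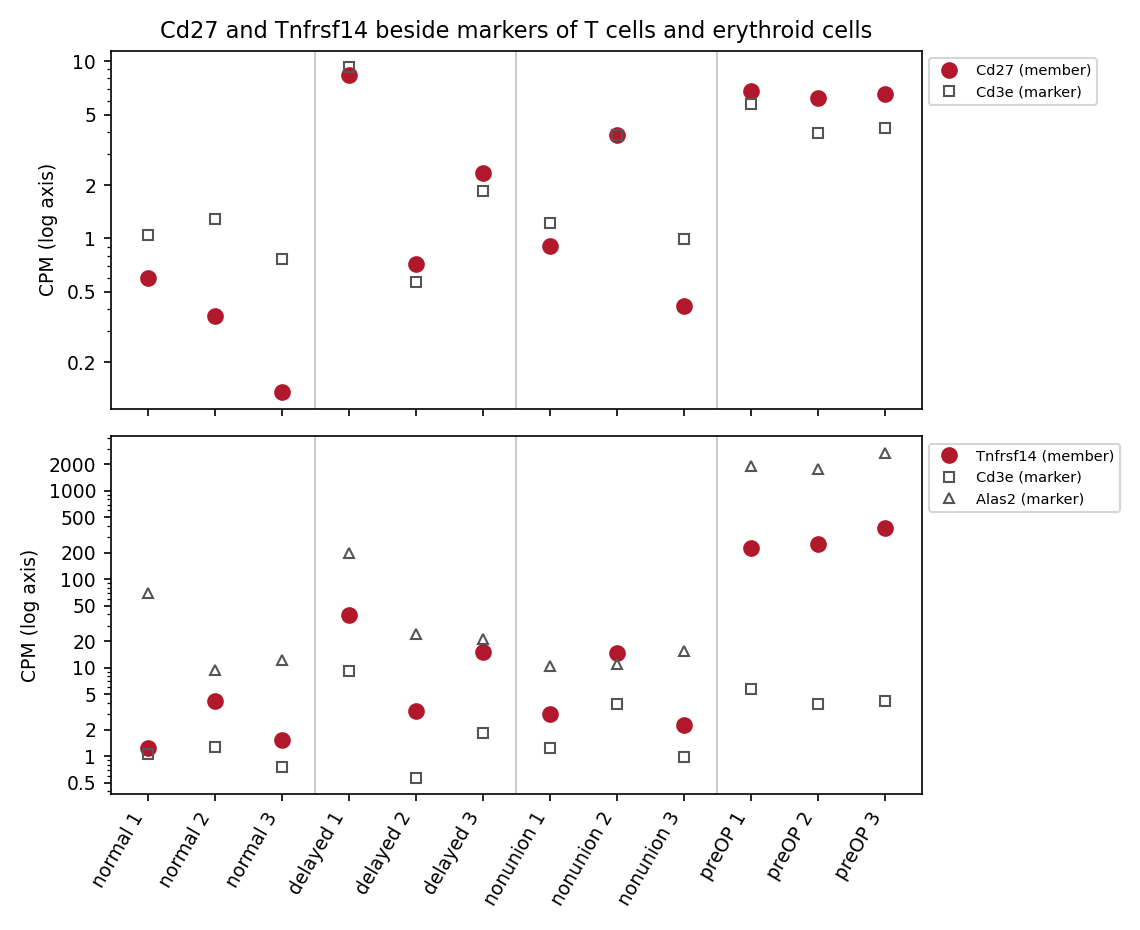
CPM (log axis) of Cd27 (top) and Tnfrsf14 (bottom) in each of the 12 libraries as red points, beside the markers Cd3e (T cells) and, for Tnfrsf14, Alas2 (erythroid cells) as open symbols. Cd27 lies near Cd3e in delayed 1 and nonunion 2, and Tnfrsf14 and Alas2 are both highest in preOP.

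LIGHT (Tnfsf14), a ligand of both HVEM and the lymphotoxin beta receptor, was lower in hematoma too. It was 2.31, 1.16 and 0.901 CPM in normal, 1.50, 0.361 and 1.21 CPM in delayed, 1.11, 0 and 0.620 CPM in nonunion and 3.90, 5.80 and 6.29 CPM in preOP. Every hematoma library was below every preOP library. The mean hematoma differed by -2.43 (SE 0.56, edgeR adjusted p = 0.0056) and nonunion by -3.05 (SE 0.82, edgeR adjusted p = 0.018). The delayed call (-2.37, SE 0.79, edgeR adjusted p = 0.044) was lost in 15 of 20 alternatives.

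Tnfsf9, the ligand of the costimulatory receptor Tnfrsf9, was the most raised ligand. It was 5.56, 10.8 and 5.81 CPM in normal, 15.3, 6.24 and 11.6 CPM in delayed, 11.3, 6.01 and 10.6 CPM in nonunion and 1.33, 1.60 and 1.05 CPM in preOP. All hematoma libraries were above all preOP libraries, and the hematoma groups overlapped. The log2 fold change over preOP was 3.05 (SE 0.46, edgeR adjusted p = 0.00098) in delayed, 2.81 (SE 0.46, adjusted p = 0.0015) in nonunion and 2.47 (SE 0.46, adjusted p = 0.0018) in normal, and each held under every alternative run. Its receptor Tnfrsf9 stayed at 0.345 to 1.39 CPM in all 12 libraries and passed no test.

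Tnfrsf4 (OX40), a receptor of activated T cells, was 0.451, 1.22 and 0.541 CPM in normal, 2.42, 1.55 and 2.10 CPM in delayed, 0.870, 1.08 and 0.744 CPM in nonunion and 2.02, 1.84 and 3.57 CPM in preOP. Delayed lay above normal and nonunion without overlap, and it overlapped preOP. Normal was lower than preOP (log2 fold change -1.75, SE 0.49, edgeR adjusted p = 0.016), a call lost without normal 1, normal 3 or preOP 3. Calls of nonunion (-1.48, SE 0.50, edgeR adjusted p = 0.045) and of the mean hematoma (-1.17, SE 0.37, edgeR adjusted p = 0.026) were lost in 15 of 20 and 10 of 19 alternatives. Delayed exceeded normal by 1.46 (SE 0.52, edgeR adjusted p = 0.12), which DESeq2 called.

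Tnfrsf25 (DR3), a death domain receptor of lymphocytes, was 0.551, 2.20 and 1.17 CPM in normal, 1.69, 0.825 and 1.01 CPM in delayed, 1.78, 12.5 and 2.36 CPM in nonunion and 3.70, 5.33 and 9.55 CPM in preOP. Normal and delayed lay below preOP, and nonunion 2 was the highest library of all. The mean hematoma (-1.61, SE 0.58, edgeR adjusted p = 0.044), normal (-2.24, SE 0.79, edgeR adjusted p = 0.041) and delayed (-2.39, SE 0.80, edgeR adjusted p = 0.044) were called lower than preOP. These were lost in 12 of 19, 8 of 20 and 11 of 20 alternatives. Its ligand Tnfsf15 was too low to test and reached 1.08 CPM in nonunion 2.

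The remaining costimulatory members stayed low. Tnfrsf8 (CD30) ranged over 0.771 to 4.07 CPM, its ligand Tnfsf8 over 0.0612 to 1.38 CPM and Tnfrsf18 (GITR) over 0.567 to 3.38 CPM, and none was called by edgeR with all libraries. Tnfrsf8 in delayed against preOP (1.10, SE 0.47, edgeR adjusted p = 0.10) was called higher by DESeq2 (1.25, adjusted p = 0.028) and by edgeR without delayed 2 and nonunion 2 (1.54, adjusted p = 0.0076). Without those libraries edgeR also called it in the mean hematoma (0.88, adjusted p = 0.029). Tnfsf8 and Tnfrsf8 were both highest in delayed 1. Cd40lg, Cd70 and Tnfsf4 were under 1 CPM in every library and did not pass the filter on low counts with all libraries. The same held for Tnfrsf13b, which belongs with the receptors of APRIL and reached at most 0.691 CPM. Without delayed 2 and nonunion 2 edgeR called Tnfrsf13b lower than preOP in normal (adjusted p = 0.014), nonunion (adjusted p = 0.0079) and the mean hematoma (adjusted p = 0.0019). Delayed was not called (adjusted p = 0.055).

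Tnfrsf19 (TROY) is a receptor of mesenchymal and epithelial progenitors with no agreed ligand in the superfamily. It was the sole member that edgeR with all libraries called between hematoma groups. It was 2.96, 0.857 and 3.60 CPM in normal and 0.0384, 0.155 and 0.0806 CPM in delayed. In nonunion it was 0.909, 0.154 and 0.207 CPM, and in preOP 2.91, 2.45 and 4.50 CPM. All delayed libraries were below all normal and preOP libraries, and the 3 delayed libraries held 6 reads in all, against 153 in normal and 184 in preOP. Delayed was lower than normal by a log2 fold change of -4.77 (SE 0.96, edgeR adjusted p = 0.026). That call was lost without normal 1, normal 3, delayed 1 or delayed 3, at adjusted p values of 0.071 to 0.09.

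Against preOP, delayed was lower by -5.13 (SE 0.87, edgeR adjusted p = 0.0017) and nonunion by -2.82 (SE 0.75, edgeR adjusted p = 0.017), while normal differed by -0.40 (SE 0.68, edgeR adjusted p = 0.65). Nonunion against normal gave -2.52 (SE 0.84, edgeR adjusted p = 0.14). Of 8 osteoblast markers, 6 were lower in delayed than in normal and 4 in nonunion than in normal, and their sums, given above, overlapped between delayed and nonunion. Sp7, a defining marker picked after its values were seen, stood at 5.69 to 23.3 CPM in normal, 0.103 to 0.460 CPM in delayed and 0 to 1.46 CPM in nonunion. In preOP, Sp7 was 0.888 to 2.28 CPM. The part of bone-forming cells in Tnfrsf19 was not tested.

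Tnfrsf21 (DR6), a death domain receptor that has no agreed ligand within the superfamily, was 53.8, 37.1 and 38.5 CPM in normal, 83.1, 74.1 and 55.2 CPM in delayed, 69.5, 49.5 and 41.0 CPM in nonunion and 60.5, 67.4 and 59.0 CPM in preOP. Delayed was above normal without overlap (log2 fold change 0.69, SE 0.29, edgeR adjusted p = 0.18), and no comparison passed.

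**Figure D5:**
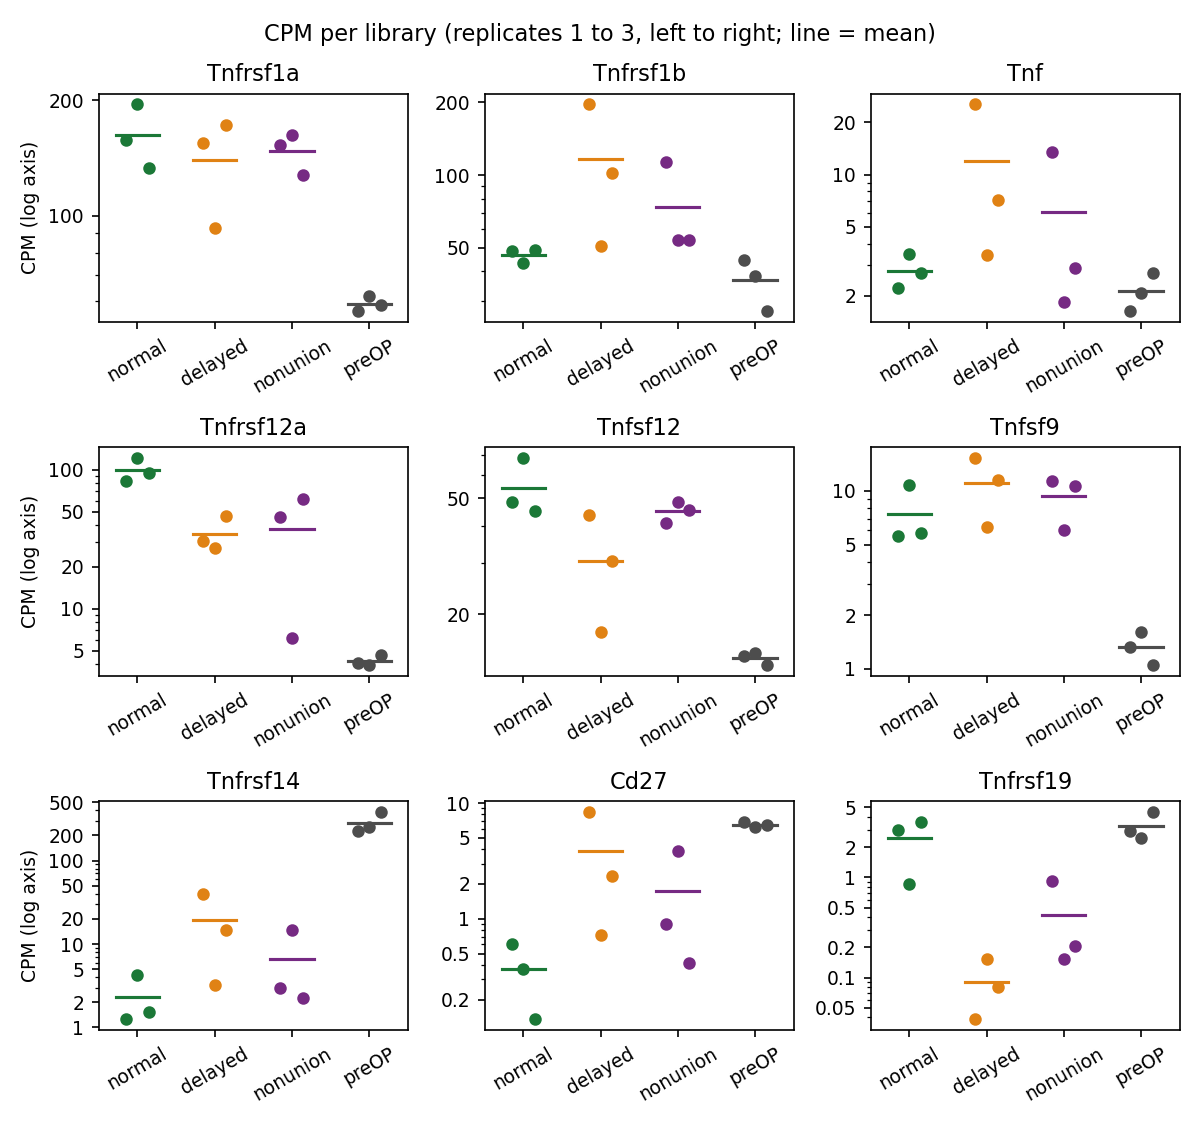
CPM of 9 members in each library (points, replicates 1 to 3 from left to right; line, group mean; log axis, which does not start at 0). Tnfrsf1a, Tnfsf12 and Tnfsf9 separate all hematoma libraries from preOP, Tnfrsf14 is highest in preOP, and Tnfrsf19 is lowest in delayed.

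A list of other TNF pathway genes (adapters and kinases, NF-kB subunits, inhibitors and feedback targets, death effectors, sheddases and further superfamily genes) had few calls between hematomas. Of its 49 genes, 41 were in the files and 40 were tested. Delayed against normal, nonunion against normal and nonunion against delayed each called 0 of the 40 with edgeR, with 7, 3 and 3 at an unadjusted p below 0.05. Among all 12474 genes, 7.13%, 2.37% and 0% were called, and 3214, 2558 and 881 genes had an unadjusted p below 0.05. The list's estimates ran from -1.14 to 1.35, -0.96 to 1.89 and -1.93 to 1.84 on the log2 scale, and changes of this size can be missed with 3 libraries a group. In delayed against normal their median log2 fold change was 0.26 (all genes 0.02). DESeq2 called 2 in delayed against normal, Tnfaip2 (higher) and Nfkbib (lower), and 0 in the other 2 comparisons.

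Against preOP the mean hematoma called 5 pathway genes higher and 6 lower. The higher genes were Tnfaip6, an anti-inflammatory matrix protein (log2 fold change 4.88, SE 0.66), Tnfaip2 (1.84, SE 0.29), the necroptosis kinase Ripk3 (1.59, SE 0.49), the ligand Eda (1.52, SE 0.39) and the NF-kB subunit Nfkb2 (1.30, SE 0.23), with edgeR adjusted p values of 0.00022 to 0.023. Lower were the receptor Relt (-1.85, SE 0.36, edgeR adjusted p = 0.0021), Tnfaip8, the kinases Chuk, Ikbkb and Map3k7, and the sheddase Adam10. The share called, 27.5%, was below the 40.6% of all genes. Nfkbia, the NF-kB inhibitor that NF-kB itself induces, reached 299.6 CPM in delayed 1, the library with the highest Tnf, against 33.2 to 87.9 CPM in the other 11 libraries. Nonunion 1, second highest for Tnf at 13.5 CPM, was within that range. This is a single gene of the list, and edgeR called 0 of 12 inhibitors and feedback targets in any comparison between hematomas. The part of Tnf in Nfkbia was not tested.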

How the data were processed

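RNA from 12 libraries was sequenced after Trizol extraction and the Illumina TruSeq RNA kit with 1 ug of total RNA, per the labels' protocols. The submitters' processing notes name bcl2fastq 1.8.4, FastQC, Trimmomatic, Salmon and the build rn6, with no version stated there for FastQC, Trimmomatic or Salmon. Per the file headers, each of the 12 deposited files gives estimated counts, TPM (transcripts per 1000000, scaled by effective length), length and effective length for 18321 RefSeq transcripts. The deposited estimated counts were rounded per transcript and added up per symbol, with symbols taken from RefSeq (16425 symbols for 17367 transcripts). Another 954 transcripts had no symbol and stayed as features of their own. The deposited TPM served only for ratios between members within a library.

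Tests used edgeR 4.0.16 in R 4.3.3 (quasi-likelihood F-test, TMM scaling, filterByExpr by group, Benjamini-Hochberg adjustment over all genes of the fit, adjusted p below 0.05, two-sided). Comparisons among hematomas used 1 fit of 9 libraries (12474 genes, 6 residual degrees of freedom), and those with preOP 1 fit of 12 libraries (12846 genes, 8 residual degrees of freedom). The SE of a log2 fold change was taken as its size over the root of F. The procedure was tested on simulated data in which 200 genes were given a known difference and the others none. Between delayed and normal, genes planted with an 8-fold difference were recovered in 53.6% of cases. That share fell to 13.7% at 4-fold and 0.298% at 2-fold, and 8.4% of the calls were false. For the mean hematoma against preOP the shares in the same order were 84.3%, 60% and 7.16%, with 5.31% of the calls false. The real fits called 889 and 5213 genes in these comparisons. The adjustment is stricter where fewer genes differ, so these shares may understate recovery in the real data. Values per library were given for the 15 members called in any of 7 comparisons and for other members with a mean of at least 5 CPM in a group, and members under 1 CPM in all libraries were only named. The members, the pathway and marker lists and the tests were chosen with earlier results of these data known. The level of 1 marker gene is not reported here.

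Alternatives were DESeq2 size factors, DESeq2 1.42.0, a replicate block, no filter on low counts, effective lengths as offsets, leaving out ribosomal RNA, leaving out delayed 2 together with nonunion 2, only the groups compared, and each library left out in turn. Reported values use all libraries, and 0 pairs of libraries had identical counts. The depth of 16808984 to 24325144 reads sets the smallest level seen, and the bounds for 0 reads and the exact interval cover counting error only.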

Additional observations from a re-analysis of the deposited data

How the results depend on the processing

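Over 924 checks of a member's call under an alternative, 804 calls were kept, 120 were lost and 0 reversed in sign. Tnfrsf12a, Tnfsf9, Tnfrsf1a and Ltbr kept every call against preOP. Delayed against normal called 1 member and 889 genes. Without delayed 2 and nonunion 2 it called 6 members and 2076 genes, with DESeq2 4 members and 2035 genes, and with only the groups compared 2 members. Nonunion against normal called 0 members and 296 genes, and DESeq2 called 1 member and 1311 genes. Nonunion against delayed called 0 genes, against 60 without delayed 2 and nonunion 2 and 184 with DESeq2. Nonunion against preOP called 10 members and 28.4% of genes, and 16 members and 41.7% of genes without delayed 2 and nonunion 2, where Cd27, Faslg, Ltb, Tnf, Tnfrsf13b and Tnfrsf1b were added. The causes were not tested.

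Leaving out 1 library at a time gave 0 to 2 members and 176 to 1433 genes for delayed against normal, 23 to 446 genes for nonunion against normal and 0 to 1 genes for nonunion against delayed. Against preOP it gave 9 to 13 members and 3952 to 6389 genes for normal, 6 to 14 and 2292 to 4561 for delayed, 6 to 12 and 2338 to 4407 for nonunion, and 10 to 16 and 3566 to 6159 for the mean hematoma. Such a fit with 2 libraries in a group takes its spread from all groups. With a replicate block, delayed against normal called 0 members (Tnfrsf19 at an edgeR adjusted p of 0.057) and 433 genes, and nonunion against normal 148 genes. Deviations from the group mean correlated at -0.21 to 0.21 between same-numbered libraries and at -0.37 to 0.37 between differently numbered ones. With 3 libraries a group these correlations cannot exclude pairing, and none was assumed in the main fits.

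Without ribosomal RNA the median log2 fold change of all genes against preOP moved by 0.21 for delayed, 0.16 for nonunion and for the mean hematoma and 0.12 for normal, and by 0.10 for delayed against normal. With DESeq2 size factors it moved by 0.13 for delayed against preOP. The share of higher calls in delayed against preOP went from 44.6% to 57.5% without ribosomal RNA, and the members called from 6 higher and 6 lower to 7 higher and 3 lower. In the mean hematoma against preOP the signs of Cd40 and Tnfsf13, neither called, flipped under both of these scalings. Members at a few reads, such as Tnfrsf17, Tnfrsf19 in delayed and Faslg, are limited by depth, most of all in nonunion 2.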
